A study of Mus musculus with 15 samples.

Results

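A set of 7 miRNAs from 5 mouse hairpins that inflammatory signals are known to induce was followed in plasma after a septic insult. The set held mmu-miR-155-5p, both arms of miR-147 (mmu-miR-147-3p and mmu-miR-147-5p), both arms of miR-21a (mmu-miR-21a-5p and mmu-miR-21a-3p), mmu-miR-132-3p and mmu-miR-212-3p. The species prefix is left off from here on. They were chosen by name, and all 7 were found among the 1205 entries of the miRNA count table. Extracellular small RNA had been sequenced from platelet-free plasma of male wild-type C57BL/6J mice 24 h after surgery. The surgery was either a sham operation (6 libraries) or cecal ligation and puncture (CLP, 9 libraries), in which the cecum is tied and pierced so that gut bacteria reach the abdomen. Plasma holds RNA released by many tissues, so a change in release per cell and a change in the number or kind of releasing cells cannot be told apart. The labels do not state that each library is a separate animal, so the p-values measure the spread between libraries.

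A miRNA hairpin is cut into a duplex, and one of its arms is usually loaded into an Argonaute protein while the other is degraded. The loaded arm finds target mRNAs mainly through its seed, the bases near its 5′ end. Mir155 is switched on by Toll-like receptors and cytokines in macrophages and lymphocytes, and miR-155-5p represses Socs1 and Inpp5d, which restrain those signals. Mir147 is induced in macrophages by Toll-like receptor ligands and dampens their cytokine output. Mir21a is active in many cell types, responds to STAT3 and AP-1, and represses Pdcd4. Mir132 and Mir212 share a primary transcript that responds to CREB, and miR-132 represses the enzyme that breaks down acetylcholine, a transmitter that restrains macrophages.

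The mature sequences show which members can be read as relatives. Each is printed 5′ to 3′ with the seed (bases 2 to 8) in capitals, from RefSeq on GRCm38.p6, which held 6 of the 7 members.
miR-155-5p: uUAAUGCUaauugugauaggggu
miR-147-5p: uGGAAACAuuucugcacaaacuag
miR-21a-5p: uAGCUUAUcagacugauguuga
miR-21a-3p: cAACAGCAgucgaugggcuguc
miR-132-3p: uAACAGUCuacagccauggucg
miR-212-3p: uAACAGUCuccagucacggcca
Only miR-132-3p and miR-212-3p shared a seed. Their first 9 bases were the same, and 17 of their 22 positions matched. No other table entry with a sequence in RefSeq carried the seed of any of these 6 members. RefSeq held a sequence for 1012 of the 1230 miRNA names among the entries, and the other names could not be checked. The member without a sequence there was miR-147-3p. The mature GC content was 34.8% for miR-155-5p, 37.5% for miR-147-5p, 36.4% for miR-21a-5p, 59.1% for miR-21a-3p, 50.0% for miR-132-3p and 54.5% for miR-212-3p.

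The hairpins lie in different kinds of host transcript. In GENCODE M21 on mm10, Mir155 (chr16:84714140-84714204, plus strand) falls in an exon of the noncoding gene Mir155hg. Mir147 (chr2:122640803-122640881, plus strand) lies in the untranslated part of an exon of AA467197, a protein-coding gene on the same strand. Mir21a (chr11:86584067-86584158, minus strand) lies in the untranslated part of an exon of Vmp1, also on the same strand. Mir212 (chr11:75173388-75173478) and Mir132 (chr11:75173682-75173747), both on the plus strand, sit 203 bases apart in an intron of the noncoding gene 1700016P03Rik.

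The libraries held between 5274676 and 13576482 miRNA counts. Levels are given in CPM, counts per 1000000 of the library size as scaled by TMM, a factor that balances composition between libraries. The group difference was tested with edgeR's quasi-likelihood F test, adjusted by Benjamini-Hochberg over the 426 tested miRNAs, with a threshold of 0.05. At this threshold 47.2% of the tested miRNAs differed, 25.4% being higher and 21.8% lower in CLP. Groups without any overlap were found for 19.7% of tested miRNAs, CLP being higher for 8.45% and lower for 11.3%. Scaling by library size alone moved the median log2 fold change of all tested miRNAs from 0.11 to -0.12, and directions below are relative to TMM scaling unless stated. The labels give no batch.

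Of the 7 members, 4 rose in CLP (miR-155-5p, miR-147-3p, miR-21a-5p and miR-21a-3p), 1 fell (miR-147-5p) and 2 did not pass the test (miR-132-3p and miR-212-3p). The median log2 fold change of the 7 was 0.71, beside 0.11 over all tested miRNAs. So 5 of 7 members passed where 47.2% of all tested miRNAs did, and 4 of 7 had groups that did not overlap where 19.7% did. Both counts of overlap are of TMM-scaled levels. Relative to the library total alone, the groups overlapped for miR-155-5p, miR-147-5p and miR-21a-5p and stayed apart for miR-147-3p. The share over all tested miRNAs was not taken at that scaling. The call of miR-21a-3p was not stable, as given below. All 7 passed the filter on low counts, which asked for about 1.37 CPM in at least 6 libraries. For miR-147-3p only 2 sham libraries and all 9 CLP libraries reached that level, and for miR-155-5p 4 sham and all 9 CLP libraries did, so these entries qualified through the group in which they were higher.

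**Figure D1:**
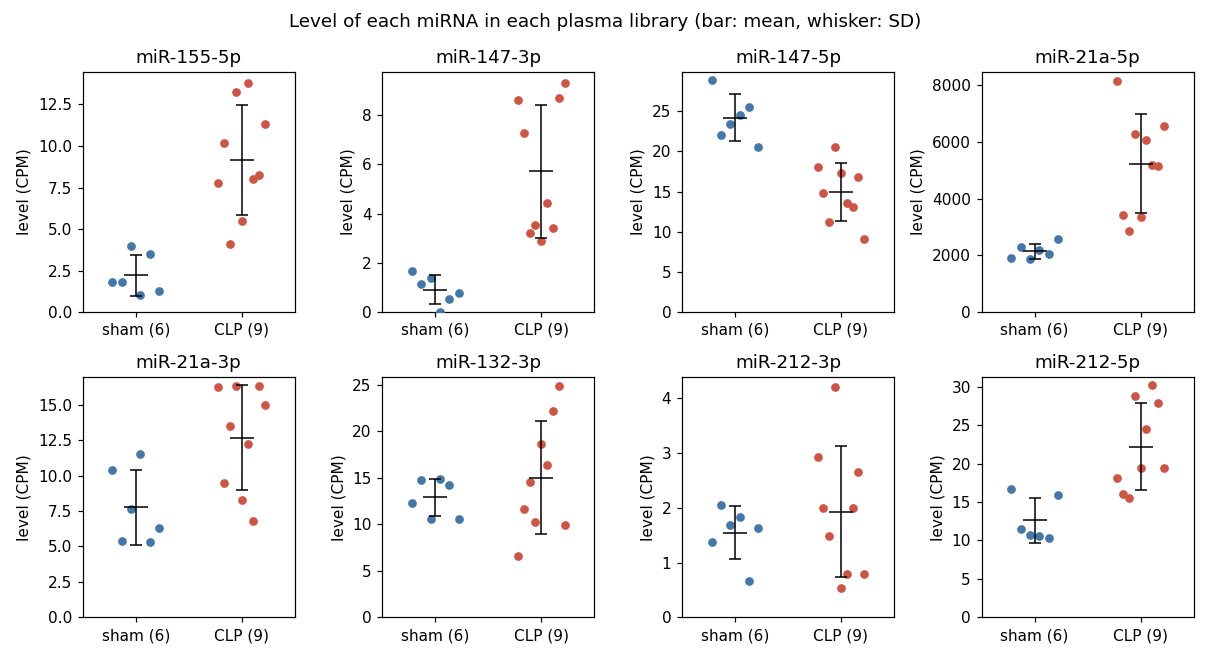
Level in CPM (vertical axis, from 0) of the 7 members and of miR-212-5p, the partner arm of miR-212-3p, in each library. Points are libraries, bars are means and whiskers are SDs of 6 sham and 9 CLP libraries. On this TMM scale the groups do not overlap for miR-155-5p, miR-147-3p, miR-147-5p and miR-21a-5p, and they overlap in the other panels.

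miR-155-5p was scarce in plasma, and its TMM-scaled levels did not overlap between the groups. In sham libraries its lowest, median and highest levels were 1.0, 1.80 and 3.97 CPM, and in CLP libraries 4.10, 8.25 and 13.8 CPM. The lowest CLP library, CLP 3, thus lay just above the highest sham library, sham 3. These levels rest on 6 to 26 counts in sham and 45 to 175 in CLP. For the smallest count, in sham 4, the exact Poisson 95% interval was 0.368 to 2.18 CPM, and such intervals cover counting error only. The intervals of sham 3 (2.59 to 5.82 CPM) and CLP 3 (3.01 to 5.45 CPM) overlapped. The 6 sham libraries averaged 2.22 ± 1.22 CPM (SD) and the 9 CLP libraries 9.13 ± 3.31 CPM. The log2 fold change was 2.04 ± 0.37 (SE; edgeR adjusted p = 0.000188), or 4.11-fold, which ranked 24 from the top among the 426 tested miRNAs. With a trend with GC content in each library removed, the log2 fold change was 1.53 (edgeR adjusted p = 0.000603). CLP 6 and CLP 4 held the highest levels, 13.8 and 13.3 CPM.

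The partner arm, miR-155-3p, was almost absent. It had 0 counts in all 6 sham libraries and 2 counts in 1 CLP library, CLP 4. With 3 counts taken as the limit for a count of 0, the sham group allows up to 0.0660 CPM. Its level was too low to be tested. The plasma signal of this hairpin was therefore that of the 5p arm.

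The arms of miR-147 moved in opposite directions. In sham libraries miR-147-3p had a lowest, median and highest level of 0, 0.963 and 1.66 CPM, and in CLP libraries of 2.91, 4.42 and 9.30 CPM. No CLP library fell within the sham range. The counts behind these levels ran from 0 to 12 in sham and from 27 to 59 in CLP. For the count of 0 in sham 4, the exact Poisson 95% interval reached 0.617 CPM. The mean went from 0.916 ± 0.604 CPM (SD, n = 6) to 5.71 ± 2.71 (n = 9), a log2 fold change of 2.60 ± 0.51 (SE; edgeR adjusted p = 0.000401), which ranked 11 from the top. Within CLP, the levels were 7.29 to 9.30 CPM in CLP 9, CLP 8, CLP 1 and CLP 2 and 2.91 to 4.42 CPM in the other 5 libraries. A split into 2 sets was not tested. CLP 6, among these 5, held 56 counts and CLP 2 held 40. Their exact Poisson 95% intervals (3.34 to 5.74 and 5.21 to 9.92 CPM) overlapped.

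In contrast, miR-147-5p was the commoner arm and fell. Its lowest, median and highest levels were 20.5, 24.0 and 28.9 CPM in sham and 9.14, 14.8 and 20.5 CPM in CLP. The groups again did not overlap on the TMM scale, with CLP 4 (20.485 CPM) just under sham 6 (20.546 CPM). Counts were 147 to 213 in sham and 58 to 196 in CLP. The mean fell from 24.2 ± 2.92 CPM (SD, n = 6) to 14.9 ± 3.57 (n = 9), a log2 fold change of -0.69 ± 0.19 (SE; edgeR adjusted p = 0.00554). Its call was lost with no filter on low counts (-0.69, edgeR adjusted p = 0.0674). After correction for a trend with GC content in each library, the change was -1.14 (edgeR adjusted p = 0.000105).

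The balance of the miR-147 arms within a library needs no scaling between libraries. The log2 ratio of miR-147-3p over miR-147-5p, with 0.5 added to both counts, averaged -5.09 ± 1.61 in the 6 sham libraries and -1.49 ± 0.83 in the 9 CLP libraries (SD). The 5p arm was thus 34.0 times as abundant as the 3p arm in sham and 2.80 times in CLP, as geometric means. The ratio was higher by 3.60 in CLP on the log2 scale, with no overlap of the groups (exact two-sided permutation p = 0.0002, the smallest these group sizes can give, and 0.00380 adjusted over 19 ratios). Sham 4, with no miR-147-3p reads, had the lowest ratio, and without it the difference was 2.98 (exact permutation, adjusted p = 0.00633). In CLP 9, with 59 counts of the 3p arm and 58 of the 5p arm, the arms were level. Arm ratios were taken only for hairpins of the members. The share of other hairpins whose arm ratio separates the groups was therefore not taken.

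**Figure D2:**
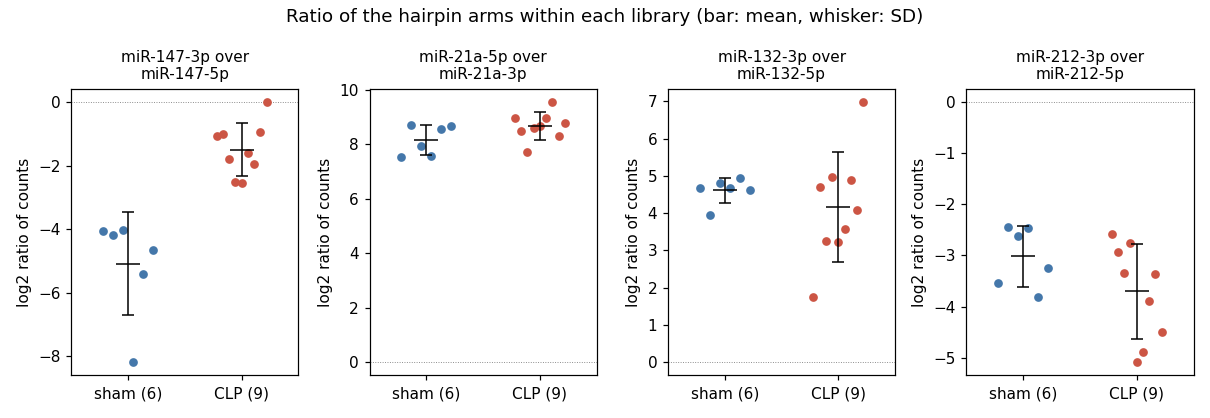
Log2 ratio of the counts of the hairpin arms within each library (vertical axis, 0.5 added to each count), for miR-147, miR-21a, miR-132 and miR-212. Points are libraries, bars are means and whiskers SDs of 6 sham and 9 CLP libraries. The miR-147 ratio runs from -8.20 to -4.01 in sham and from -2.55 to 0.02 in CLP, whereas the groups overlap for the other hairpins.

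miR-21a-5p was the most abundant member by far, ranking 29 in mean level among all 1205 entries. Its lowest, median and highest levels were 1867, 2114 and 2569 CPM in sham and 2871, 5180 and 8156 CPM in CLP. On the TMM scale every CLP library exceeded every sham library. The CLP libraries were spread more widely, from CLP 3 at the bottom to CLP 1 at the top. The mean rose from 2148 ± 261 CPM (SD, n = 6) to 5231 ± 1745 (n = 9), a log2 fold change of 1.28 ± 0.23 (SE; edgeR adjusted p = 0.000186), or 2.44-fold. After the GC correction the change was 0.78 (edgeR adjusted p = 0.00203). Its counts were not whole in 6 libraries, as arises when reads are divided between similar miRNAs, and miR-21b, whose name marks it as a relative, held at most 1 count in any library.

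The partner arm miR-21a-3p was lower by orders of magnitude. It had lowest, median and highest levels of 5.34, 6.95 and 11.5 CPM in sham and 6.80, 13.5 and 16.3 CPM in CLP. The groups overlapped, with 6 of 9 CLP libraries beyond the top of the sham range and CLP 2, CLP 5 and CLP 7 within the sham range. The log2 fold change was 0.71 ± 0.26 (SE; edgeR adjusted p = 0.0347). That call was lost under 19 of 29 alternatives, among them DESeq2 (adjusted p = 0.0888), library size scaling (0.46, edgeR adjusted p = 0.179) and the omission of any 1 of 10 libraries (edgeR adjusted p up to 0.124, without sham 6). The GC correction gave 1.02 (edgeR adjusted p = 0.00741).

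The arm ratio of miR-21a did not separate the groups. The log2 ratio of miR-21a-5p over miR-21a-3p averaged 8.16 ± 0.56 over 6 sham and 8.67 ± 0.51 over 9 CLP libraries (SD). The difference of 0.51 did not pass (exact permutation p = 0.0921, adjusted over 19 ratios 0.219). The 5p arm was 286 times as abundant as the 3p arm in sham and 406 times in CLP.

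Neither of the seed-sharing members passed the test. miR-132-3p had lowest, median and highest levels of 10.5, 13.3 and 14.9 CPM in sham and 6.55, 14.6 and 24.9 CPM in CLP. The CLP libraries lay on both sides of sham: CLP 8, CLP 7, CLP 5 and CLP 6 exceeded every sham library, and CLP 1, CLP 9 and CLP 4 lay below every one. The log2 fold change was 0.22 ± 0.27 (SE; edgeR adjusted p = 0.515), and its sign turned with library size scaling (-0.01). The SD was 2.02 CPM over 6 sham and 6.08 CPM over 9 CLP libraries, a difference in spread that was not tested.

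miR-212-3p was the scarcest member, with 5 to 17 counts in sham and 5 to 32 in CLP. Its lowest, median and highest levels were 0.667, 1.66 and 2.05 CPM in sham and 0.529, 2.0 and 4.20 CPM in CLP. The CLP libraries again lay on both sides, with 3 above every sham library and CLP 5 below every one. The log2 fold change was 0.30 ± 0.46 (SE; edgeR adjusted p = 0.611). It was 0.025 without CLP 4, and its sign turned with the haemolysis index as a covariate (-0.39). The exact Poisson 95% intervals of CLP 4 (2.87 to 5.93 CPM) and CLP 5 (0.194 to 1.15 CPM) did not overlap, so these libraries differed beyond counting error.

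The other arms of these hairpins differed widely in abundance. miR-212-5p, the partner of miR-212-3p, was the commoner arm and rose, from 12.6 ± 2.91 CPM (SD, n = 6) to 22.2 ± 5.69 (n = 9), and 7 of 9 CLP libraries exceeded the highest sham library. Its log2 fold change was 0.81 ± 0.22 (SE; edgeR adjusted p = 0.00428). It exceeded miR-212-3p by 8.12 times in sham and 13 times in CLP, but the arm ratio did not pass (difference in log2 ratio of 3p over 5p -0.68, exact permutation p = 0.135, adjusted 0.270). miR-132-5p had 2 to 7 counts in sham and 0 to 22 in CLP and was too low for the fit. The log2 ratio of miR-132-3p over miR-132-5p went from 4.61 ± 0.35 to 4.16 ± 1.47 (exact permutation p = 0.494, adjusted 0.671). The log2 ratio of miR-132-3p over its neighbour miR-212-3p averaged 3.07 in both groups, with an SD of 0.63 in sham and of 1.28 in CLP (exact permutation p = 0.993, adjusted 0.999).

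**Figure D3:**
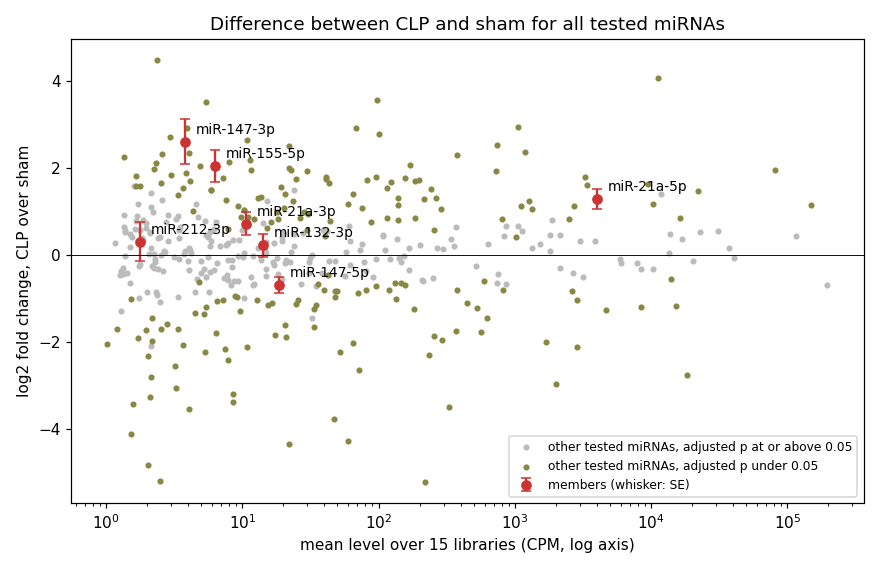
Log2 fold change of CLP over sham (vertical axis) against the mean level over 15 libraries in CPM (horizontal log axis) for all 426 tested miRNAs. Red points are the 7 members with their SE. miR-147-3p and miR-155-5p lie high among scarce miRNAs, miR-21a-5p is the one abundant member, and miR-147-5p is the one member with a negative value.

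A ratio to another miRNA of the same library also needs no scaling between libraries. Against miR-16-5p 4 of 7 members passed. The share over all tested miRNAs was not taken for ratios to a reference. miR-16-5p is a common plasma reference and also a red cell miRNA. Its own log2 fold change was 0.09 ± 0.23 (SE; edgeR adjusted p = 0.778), which was 0.30 with the haemolysis index as a covariate and took the other sign under 11 of 29 alternatives. The log2 ratio of miR-155-5p was higher in CLP by 1.96 (exact permutation, adjusted p = 0.00380) and that of miR-147-3p by 2.76 (0.00380), each with 8 of 9 CLP libraries higher than any sham library. For miR-21a-5p the ratio was higher by 1.10 (exact permutation, adjusted p = 0.0275; 0.0506 without sham 2). For miR-147-5p the difference was -0.84 (exact permutation, adjusted p = 0.0386), a call lost on leaving out any 1 of 11 libraries (up to 0.0838, without sham 1 or sham 5). The other members did not pass against miR-16-5p, with adjusted p of 0.270 for miR-21a-3p and 0.999 for both miR-132-3p and miR-212-3p (exact permutation).

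A reference from blood cells was scarcer. miR-142a-3p, made throughout the blood lineages, had 0 to 50 counts in sham, with the 0 in sham 4, and 11 to 49 in CLP. Its sham mean was 2.89 CPM, where its partner arm miR-142a-5p averaged 1473 CPM. Ratios to miR-142a-5p were not taken, nor were ratios of the other tested miRNAs to miR-142a-3p. The log2 ratios of the 7 members to miR-142a-3p were noisy, with SDs of 1.58 to 2.73 over the 6 sham libraries. Against it 1 of 7 members passed, miR-147-3p, whose log2 ratio was higher by 1.78 (exact permutation, adjusted p = 0.0386), a call lost on leaving out any 1 of 12 libraries (up to 0.0908, without sham 5). The ratio of miR-155-5p to miR-142a-3p was higher by 0.99 and did not pass (exact permutation, adjusted p = 0.374), whereas without sham 4 it was higher by 1.66 and passed (0.0427). The summed level of 3 blood cell miRNAs (miR-223-3p, miR-142a-3p and miR-142a-5p) was 0.146% to 0.212% of the TMM-scaled library size in sham and 0.171% to 0.398% in CLP. Percentages of other markers are on the same scale. The log2 fold changes of these 3 were 0.36 to 0.45 (edgeR adjusted p from 0.0627 to 0.611). Of these markers only miR-142a-3p was at 0 in a library. The summed level of 2 lymphocyte miRNAs was 0.115% to 0.182% in sham and 0.0543% to 0.152% in CLP, and both fell. The part of either list in the change of the members was not tested.

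Some markers of other sources also moved between the groups, while others did not pass. The summed level of 4 red cell miRNAs, miR-16-5p among them, was 15.9% to 45.7% of the TMM-scaled library size in sham and 8.28% to 38.0% in CLP. Of the 4, 1 passed, miR-451a, which fell. That of 3 striated muscle miRNAs was 0.0409% to 0.669% and 0.497% to 4.06%, with 2 of 3 rising. For 2 miRNAs rich in platelets it was 3.46% to 4.56% in sham and 0.511% to 1.18% in CLP. Of these 2, miR-191-5p fell, from a mean of 37342 to 5450 CPM (edgeR adjusted p = 4.37e-07). The other, miR-126a-3p, averaged 3141 CPM in sham and 2354 in CLP and did not pass (edgeR adjusted p = 0.129). The sum of 2 hepatocyte miRNAs was 2.25% to 4.61% in sham and 1.42% to 14.7% in CLP, and miR-122-5p and miR-192-5p had edgeR adjusted p of 0.139 and 0.122. For 3 pancreatic miRNAs it was 0.0447% to 0.0870% and 0.0274% to 0.232%, with 1 of 3 rising, miR-217-5p (11.8-fold, edgeR adjusted p = 0.00199). For 2 epithelial miRNAs it was 0.0395% to 0.122% and 0.00435% to 0.0139%, with 1 of 2 falling, miR-205-5p (11.4-fold, edgeR adjusted p = 2.39e-07). None of these markers was at 0 in any library. With the haemolysis index (log2 of the red cell miR-451a over miR-23a-3p) as a covariate, the changes were 1.89 for miR-155-5p, 2.45 for miR-147-3p, -0.65 for miR-147-5p and 1.26 for miR-21a-5p, with edgeR adjusted p from 0.00116 to 0.0318. The call of miR-21a-3p was lost (0.54, edgeR adjusted p = 0.171). The part of the muscle, platelet, hepatocyte, pancreatic and epithelial miRNAs was not tested.

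**Figure D4:**
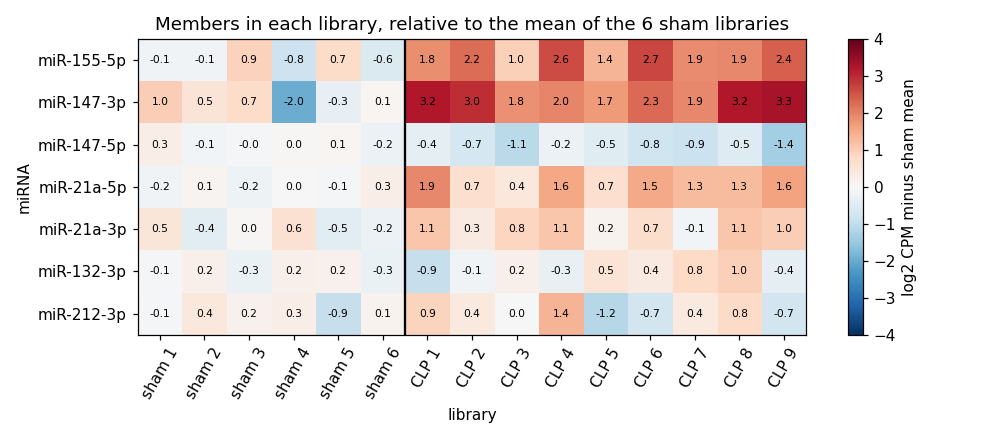
Log2 CPM of each member in each library minus the mean of the 6 sham libraries (colour and printed value), with members in rows and libraries in columns. miR-155-5p, miR-147-3p and miR-21a-5p are above 0 in all 9 CLP libraries and miR-147-5p is below 0 in all 9, while miR-132-3p and miR-212-3p take both signs.

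Among the 9 CLP libraries the members did not rise and fall together in a way that passed a test. Over the 21 pairs of members, Pearson's r of log2 CPM ran from -0.48 to 0.64 and Spearman's rho from -0.60 to 0.62. No pair passed, with the lowest exact permutation p adjusted over 21 pairs at 0.705 for r and 0.454 for rho, and 0 pairs had an unadjusted p under 0.05. The highest r was that of miR-155-5p with miR-21a-5p (r = 0.64, exact permutation p = 0.0618; rho = 0.52, p = 0.162), and it was 0.39 without the 2 libraries farthest from the median of miR-155-5p. The arms of miR-147 had an r of -0.13 (exact permutation p = 0.727) and a rho of -0.10 (p = 0.810). CLP 3 and CLP 5 were the lowest libraries for both miR-155-5p and miR-21a-5p and also for miR-147-3p.

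Profiles most like each member were found by the mean absolute difference, over 15 libraries, of log2 CPM centred on the sham mean, a measure on which scaling has little effect because both miRNAs come from the same library. Nearest to miR-155-5p were miR-340-5p (0.41), miR-1839-5p (0.47) and miR-669c-5p (0.48). Nearest to miR-147-3p were let-7f-5p (0.53), miR-103-3p (0.60) and miR-340-5p (0.60), and nearest to miR-21a-5p were miR-221-3p (0.23), miR-10a-5p (0.29) and miR-152-3p (0.29). The falling arm miR-147-5p was closest to miR-339-3p (0.20), miR-700-3p (0.25) and miR-744-5p (0.25). For miR-21a-3p these were miR-542-3p (0.32), miR-378a-3p (0.32) and miR-450b-5p (0.33). For miR-132-3p they were miR-200b-3p (0.31), miR-501-3p (0.33) and miR-676-3p (0.36), and for miR-212-3p miR-350-5p (0.47), miR-409-3p (0.49) and miR-363-3p (0.50).

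Other miRNAs linked to inflammation took mixed directions. Of 17 listed, 15 were tested, of which 3 rose, 2 fell and 10 did not pass, so that 5 of 15 passed where 47.2% of all tested miRNAs did. Their median log2 fold change was 0.41 beside 0.11 over all tested. The largest rise was that of miR-223-5p, the scarcer arm of a myeloid hairpin, from 22.5 ± 2.74 CPM (SD, n = 6) to 154 ± 61.5 (n = 9). Its log2 fold change was 2.78 ± 0.28 (SE; edgeR adjusted p = 4.03e-07). The commoner arm, miR-223-3p, averaged 290 ± 36.8 CPM in sham and 371 ± 120 in CLP and did not pass (0.36 ± 0.21, edgeR adjusted p = 0.157). miR-221-3p, which restrains the cell cycle inhibitor Cdkn1b, rose from 174 ± 18.9 to 363 ± 108 CPM (1.06 ± 0.20, edgeR adjusted p = 0.000350). Its cluster partner miR-222-3p fell from 278 ± 58.3 to 118 ± 25.5 CPM (-1.24 ± 0.18, edgeR adjusted p = 1.81e-05). miR-187-3p, which is induced by interleukin-10, rose from 6.57 ± 2.64 to 11.9 ± 3.71 CPM (0.86 ± 0.28, edgeR adjusted p = 0.0162). That call of miR-187-3p was lost under 6 of 27 alternatives, among them library size scaling (edgeR adjusted p = 0.0722) and the omission of sham 3 (0.0511) or CLP 7 (0.0533). miR-125a-5p fell from 22726 ± 11815 to 10102 ± 4368 CPM (-1.17 ± 0.36, edgeR adjusted p = 0.0111), a call lost with the haemolysis index as a covariate (0.0740). The 10 that did not pass, among them both miR-146 members, had log2 fold changes from -0.32 to 1.16. miR-9-5p and miR-34a-5p were too low to be tested, with 14 counts each over the 6 sham libraries and 62 and 47 over the 9 CLP libraries.

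**Figure D5:**
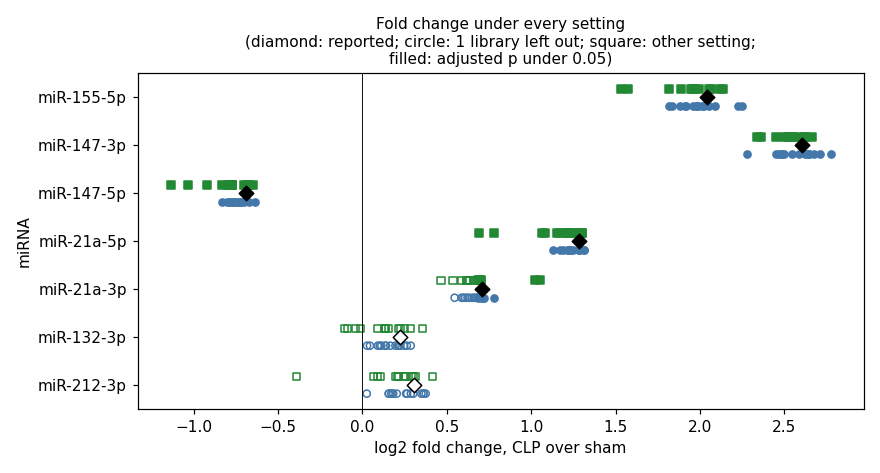
Log2 fold change of CLP over sham (horizontal axis) for each member under every setting tried. Diamonds are the reported values, circles leave out 1 library and squares are other settings, filled where the adjusted p was under 0.05. miR-155-5p stays between 1.53 and 2.25, miR-147-3p between 2.28 and 2.77 and miR-21a-5p between 0.69 and 1.31, all filled, while miR-132-3p and miR-212-3p are open and reach both sides of 0.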

How the data were processed

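The authors deposited expected counts per mature miRNA, unscaled, with 1 column for each of 15 libraries, matched by title. The table's name points to the exceRpt pipeline. The submitters' processing notes list mm10. The aligner, trimming and miRNA release are not given in the sources used here. Per the labels' protocols, plasma was spun at 1000 and then 10000 x g, RNA was taken from 100 ul, and both adapters were ligated, which favours some end sequences, so counts are relative.

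Of the entries, 4.56% were not whole, and counts were rounded. edgeR 4.0.16 in R 4.3.3 tested CLP against sham (filterByExpr, TMM, robust quasi-likelihood F test, no covariate, two-sided) over 426 miRNAs. SE is the size of the log2 fold change over the square root of F. Ratios (0.5 added to both counts) were compared by exact two-sided permutation of the group labels, enumerated in full, tested where both entries had counts in at least 12 libraries (19 ratios).

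Members, lists and alternatives were chosen with earlier results of these data known. Named miRNAs were the members, partner arms, listed miRNAs and the 3 nearest profiles per member. The fit was tested on simulated counts. Counts of any 2 libraries of a group differed far beyond sampling noise (chi-square over its degrees of freedom at least 288 in sham and 441 in CLP). GC content was known for 373 tested miRNAs. DESeq2 1.42.0 and limma 3.58.1 served as alternatives. Annotation came from GENCODE M21.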

Additional observations from a re-analysis of the deposited data

Results flagged for a closer look

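Among 28 sets of values (9 levels and 5 ratios, in each group), 4 had 1 library far from the rest by Dixon's test, which flags about 1 set in 20 by chance. Sham 4 stood apart with a log2 ratio of miR-147-3p over miR-147-5p of -8.20, against -5.41 in the next library. That value rests on 0 counts of miR-147-3p and on the 0.5 added to it. Sham 2 stood apart in the level of miR-132-5p, 0.897 CPM against 0.502, which comes from 7 counts. For the same reason its log2 ratio of miR-132-3p over miR-132-5p was the lowest of the sham libraries, 3.94 against 4.62. In sham 5 the log2 ratio of miR-132-3p over miR-212-3p was 4.29 against 3.09, from 5 counts of miR-212-3p.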

How the results depend on the processing

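The calls of miR-155-5p (28 alternatives), miR-147-3p (26) and miR-21a-5p (29) held throughout. The stricter filter left no value for miR-155-5p, miR-147-3p and miR-212-3p, and removal of the GC trend none for miR-147-3p. With no filter 307 miRNAs passed rather than 201, and on leaving out 1 library 184 to 213 did.

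The change of miR-21a-3p did not pass with DESeq2 size factors (0.62), library size scaling (0.46), DESeq2 (0.63), no filter (0.71), the stricter filter (0.59), the haemolysis index (0.54), erythroid miRNAs removed (0.62) or replicates 1 to 6 alone (0.63), and was 0.55 to 0.78 on leaving out 1 library. That of miR-147-5p did not pass with no filter (-0.69). Signs turned for miR-132-3p with library size scaling (-0.013) and replicates 1 to 6 alone (-0.0431; 0.03 to 0.29 on leaving out 1 library), and for miR-212-3p with the haemolysis index (-0.39; 0.03 to 0.37). Neither passed under any setting run. miR-16-5p turned with library size scaling (-0.14), the stricter filter (-0.0662), erythroid miRNAs removed (-0.015), the GC trend removed (-0.14) and CLP 1 and CLP 5 left out (-0.092), and was -0.11 to 0.26 on leaving out 1 library. miR-142a-3p turned with the GC trend removed (-0.18). The causes were not tested.

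Same-numbered libraries did not deviate together (correlations -0.15 to -0.03, not tested). The labels do not state that the numbers pair libraries. With the replicate block over 12 libraries, 152 miRNAs passed (179 without the block). miR-147-5p (-0.68, adjusted p 0.0549), miR-21a-3p (0.67), miR-212-5p (0.62) and miR-187-3p (0.59) did not pass, and miR-132-3p was -0.11. With the block and the GC trend removed, miR-132-3p was -0.0897 and miR-142a-3p -0.0354. For ratios the block is a sign-flip test whose smallest unadjusted p over 6 pairs is 0.0312, so a ratio could pass after adjustment only if many reached that floor. No ratio passed (miR-147-3p over miR-147-5p 3.33, adjusted 0.297). There the ratio of miR-132-3p was -0.15 to miR-212-3p and -0.27 to miR-16-5p.

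Ratio differences that did not pass changed sign: with no pseudocount miR-132-3p over miR-212-3p (-0.0016), miR-212-3p over miR-16-5p (0.0017) and miR-21a-3p over miR-142a-3p (0.57, from -0.39), and without CLP 1 and CLP 5 miR-132-3p over miR-132-5p (0.0263, from -0.45) and miR-212-3p over miR-16-5p (0.23). On leaving out 1 library the ratio of miR-147-3p over miR-147-5p was 2.98 to 3.82, miR-132-3p over miR-212-3p -0.24 to 0.25, miR-132-3p over miR-16-5p -0.16 to 0.17, miR-212-3p over miR-16-5p -0.22 to 0.27, miR-21a-5p over miR-142a-3p -0.20 to 0.97, and miR-21a-3p over miR-142a-3p -0.80 to 0.59. Counts of miR-132-5p and miR-155-3p were too low for the fit.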
